A study of Homo sapiens with 6 samples.

Results

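Mitochondrial respiratory complexes II to V are built mostly from proteins encoded in the nucleus. The transcripts of 39 such subunits were followed in MDA-MB-231 cells, an established line from a triple-negative, mesenchymal-like human breast cancer. The 39 genes were taken by symbol: 4 subunits of complex II, 9 of complex III, cytochrome c (CYCS), 10 subunits of complex IV and 15 of complex V. All 39 were found among the 63241 genes of the deposited expression table, and all 39 passed the filter, an average of 1 or more TPM (a length-scaled share of the library's transcripts), that left 12999 genes to test. ArA cells, given 40 µM of it for 24 h, gave 3 libraries, and control cells, which received no ArA, gave another 3. The labels do not spell out ArA or name a vehicle, and both groups are the same parental line with no other manipulation stated. Whether the 3 libraries of a group came from separate cultures is not stated, so each p-value is set against library-to-library spread that may be partly technical.

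Complex II, succinate dehydrogenase, passes electrons from succinate to ubiquinone and also serves the tricarboxylic acid cycle. Complex III moves electrons from ubiquinol to cytochrome c while pumping protons, and complex IV, cytochrome c oxidase, hands them to oxygen. Complex V, the ATP synthase, lets protons flow back through a rotating ring of c subunits and couples that rotation to ATP synthesis. Complex II is encoded wholly in the nucleus, whereas complexes III, IV and V each also need subunits encoded by mitochondrial DNA, so their assembly draws on both genomes. NRF1, the ETS factor GABP and YY1 are the best known activators of the nuclear genes.

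No nuclear-encoded subunit of complexes II to V passed the test after 24 h of ArA. With limma and Benjamini-Hochberg adjustment over the 12999 genes, 0 of 39 members had an adjusted p below 0.05, against 0.0231% of all tested genes (3 genes, 2 higher and 1 lower in ArA cells). Every member had an adjusted p of 0.999. In bulk RNA, fewer cells of a type and less RNA per cell cannot be told apart. At an unadjusted p below 0.05 the count was 1 of 39, the complex V subunit ATP5ME, against 2.78% of all tested genes in either direction and 2.28% in the direction of ATP5ME, higher in ArA cells. The log2 fold changes, ArA over control on the log2(TPM + 1) scale, lay between -0.22 and 0.25, with a median of 0.05 over the 39 members and 0.06 over all tested genes. The number of genes called over the whole table was 0 without ArA replicate 2 or without control replicate 1, and 7 without ArA replicate 1 or without control replicate 2, while 0 members were called in each of these cases.

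By complex, the median log2 fold change was 0.12 for complex II, 0.07 for complex III, 0.07 for complex IV and 0.03 for complex V. Values were above 0 for 4 of 4, 8 of 9, 6 of 10 and 12 of 15 subunits in that order, and for 30 of 39 members in all, CYCS being below 0. Among all tested genes 68.9% were above 0, and 18 of 39 members exceeded the median of all tested genes. When TPM were rescaled by median-of-ratios size factors the median of all genes moved to 0.00, and the count of members above 0 was 18. It was 15 after quantile normalization and 18 when mitochondrially encoded genes were taken out before TPM were rescaled. The sign of a small difference thus depended on the scaling. Without ArA replicate 3 the count was 20 of 39 (55.5% of all tested genes), with a member median of 0.0019. Without ArA replicate 1 it was 35 of 39 (80.4%), with a median of 0.14.

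**Figure D1:**
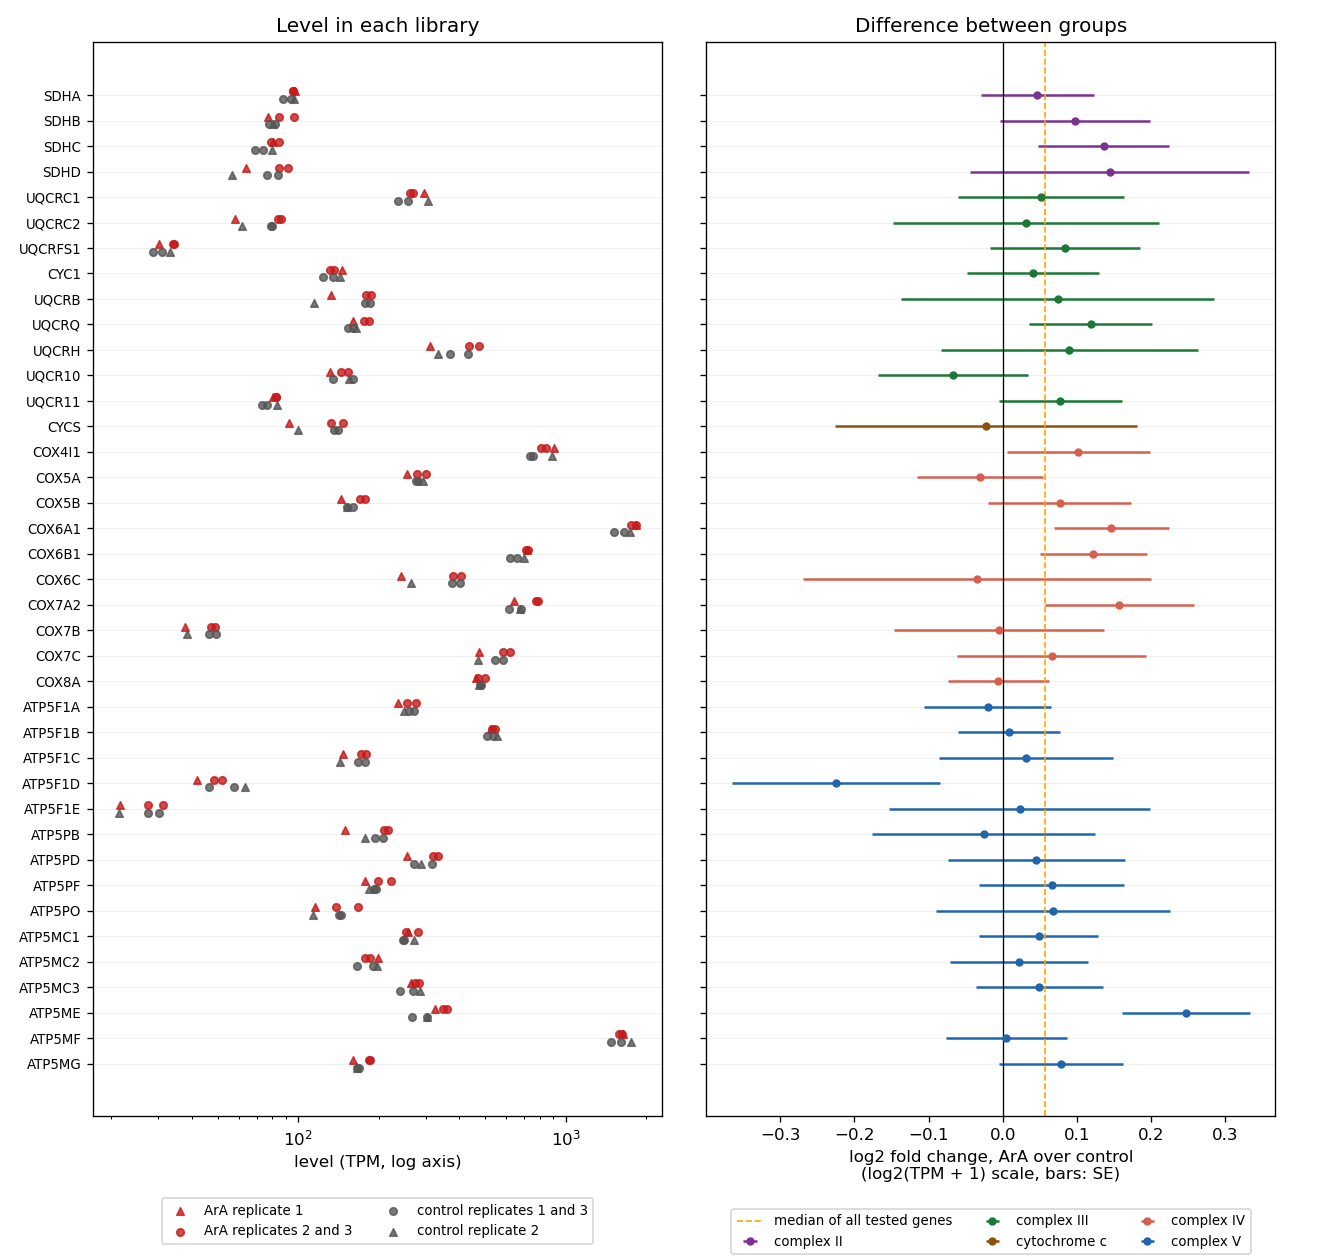
Level of each of the 39 subunit genes in every library (left, TPM on a log axis; ArA in red, control in grey; triangles mark ArA replicate 1 and control replicate 2) and the log2 fold change of ArA over control with its standard error (right, log2(TPM + 1) scale; the dashed line is the median of all tested genes, 0.06). The fold changes lie between -0.22 and 0.25, and the triangles of both groups fall to the same side in many members.

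In complex II, SDHA is the flavoprotein that oxidises succinate. It had 97.0, 95.5 and 95.2 TPM in the ArA libraries, against 88.1, 96.4 and 94.2 TPM in the control libraries. The groups overlapped, since control replicate 2 lay above 2 of the 3 ArA libraries, and the log2 fold change of 0.05 ± 0.08 (SE) was the lowest of the complex. SDHB, the iron-sulfur subunit that carries electrons onward, had 76.9, 84.8 and 96.2 TPM in ArA cells and 77.9, 80.4 and 81.6 TPM in control cells. The lowest SDHB value came from an ArA library, and its log2 fold change was 0.10 ± 0.10 (SE).

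SDHC and SDHD anchor complex II in the inner membrane and form the ubiquinone site. SDHD had the highest log2 fold change of the complex, 0.14 ± 0.19 (SE), from 63.8, 84.7 and 91.2 TPM in ArA cells and 84.1, 56.3 and 76.7 TPM in control cells. Each group held 1 low library, and the groups overlapped. SDHD shares its locus with TIMM8B on the opposite strand, which averaged 75.1 TPM over the 6 libraries, and no source used here gives the strand setting of the counting, so reads of the 2 genes may not have been told apart. SDHC averaged 81.6 ± 2.73 TPM in ArA cells and 74.3 ± 5.57 TPM in control cells (SD, n = 3 each), with overlapping groups.

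In complex III, the catalytic path runs through the Rieske iron-sulfur protein UQCRFS1 and cytochrome c1 (CYC1), beside the mitochondrially encoded cytochrome b. UQCRFS1 had 30.2, 34.0 and 34.3 TPM in ArA libraries, against 28.7, 33.1 and 31.0 TPM in control libraries, a log2 fold change of 0.08 ± 0.10 (SE). CYC1 had 146, 136 and 132 TPM in ArA libraries and 124, 144 and 135 TPM in control libraries, a log2 fold change of 0.04 ± 0.09 (SE). In both genes the groups overlapped. The core protein UQCRC1, which holds the complex together on the matrix side, had 294, 269 and 261 TPM in ArA cells and 236, 306 and 257 TPM in control cells, with the control libraries on both sides of the ArA libraries.

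Among the small accessory subunits of complex III, UQCRQ had the highest log2 fold change, 0.12 ± 0.08 (SE), with 160.1, 176 and 183 TPM in ArA cells and 153, 165 and 160.0 TPM in control cells. UQCR10 had the lowest, -0.07 ± 0.10 (SE), with 131, 145 and 154 TPM in ArA cells and 135, 155 and 161 TPM in control cells. Both pairs of groups overlapped. The other 4, UQCRC2 (the second core protein), UQCRB, UQCRH and UQCR11, had log2 fold changes of 0.03, 0.07, 0.09 and 0.08 with overlapping groups.

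CYCS, the soluble cytochrome c that shuttles electrons from complex III to complex IV and also triggers the apoptosome when released, had 92.6, 133 and 148 TPM in ArA cells, against 136, 99.5 and 141 TPM in control cells. ArA replicate 1 and control replicate 2 were the 2 lowest libraries. The log2 fold change was -0.02 ± 0.20 (SE), and its 95% interval, -0.50 to 0.46, was among the widest of the members.

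In complex IV, the nuclear subunits surround the mitochondrially encoded catalytic core and tune it. COX4I1, the ubiquitous form of subunit 4, had 901, 841 and 807 TPM in ArA cells and 752, 893 and 737 TPM in control cells, a log2 fold change of 0.10 ± 0.10 (SE). COX5A had 255, 299.7 and 278 TPM in ArA cells and 275, 293 and 281 TPM in control cells, a log2 fold change of -0.03 ± 0.08 (SE). COX8A had 461, 471 and 499 TPM in ArA cells, against 478, 475 and 483 TPM in control cells, a log2 fold change of -0.01 ± 0.07 (SE). All 3 pairs of groups overlapped, and the control libraries of COX5A and COX8A lay inside the range of the ArA libraries.

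COX6A1 and COX6B1, a pair of peripheral subunits of complex IV, were higher in every ArA library than in any control library without passing the test. COX6A1 had 1826, 1748 and 1833 TPM in ArA cells and 1646, 1734 and 1511 TPM in control cells, and COX6B1 had 719, 708 and 722 TPM in ArA cells and 619.8, 696 and 660.4 TPM in control cells. The nearest libraries of the 2 groups, ArA replicate 2 and control replicate 2, differed by little in both genes. The log2 fold changes were 0.15 ± 0.08 (SE) for COX6A1 and 0.12 ± 0.07 (SE) for COX6B1. Their unadjusted limma p-values were 0.0991 and 0.135, the smallest of the members after ATP5ME, and both had an adjusted limma p of 0.999. After median-of-ratios scaling they were 0.09 and 0.06, and the groups no longer stood apart.

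COX7A2, the form of subunit 7A found in most tissues, had the highest log2 fold change of complex IV, 0.16 ± 0.10 (SE), from 643, 775 and 786 TPM in ArA cells and 681, 676 and 614 TPM in control cells. ArA replicate 1 lay among the control libraries, and the other 2 ArA libraries above them. COX7A2 was the single member that passed the threshold under any alternative tried. Its adjusted limma p was 0.0492 with library weights (log2 fold change 0.30) and 0.999 without them. The weights were estimated from the spread of these same values, and no separate measure of library quality was used. That weighting called 1.65% of all tested genes (214 of 12999). COX6C had the lowest log2 fold change of complex IV, -0.04 ± 0.23 (SE), from 242, 378 and 408 TPM in ArA cells and 404, 264 and 377 TPM in control cells, again with 1 low library in each group. The remaining subunits COX5B, COX7B and COX7C had log2 fold changes of 0.08, -0.00 and 0.07 with overlapping groups.

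In complex V, ATP5F1A and ATP5F1B form the catalytic head that makes ATP. ATP5F1A had 236, 255 and 277 TPM in ArA cells and 259, 248 and 270.4 TPM in control cells, and ATP5F1B had 528, 532 and 546 TPM in ArA cells and 508, 553 and 536 TPM in control cells. The log2 fold changes were -0.02 ± 0.09 (SE) for ATP5F1A and 0.01 ± 0.07 (SE) for ATP5F1B, whose 95% interval ran from -0.15 to 0.17.

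ATP5F1D, the delta subunit of the central stalk, had the lowest log2 fold change of the 39 members, -0.22 ± 0.14 (SE). It had 41.8, 51.8 and 48.4 TPM in ArA cells and 46.5, 63.2 and 57.3 TPM in control cells. ArA replicate 2 lay above control replicate 1, so the groups overlapped, and the unadjusted limma p was 0.151. Over the alternatives tried the log2 fold change of ATP5F1D lay between -0.35, without control replicate 1, and -0.04, without both control replicate 2 and ArA replicate 1. Without control replicate 2 alone it was -0.13, and without ArA replicate 1 alone -0.14. Its unadjusted limma p was below 0.05 after GC correction and without control replicate 1, while its adjusted limma p was 0.386 or more in every alternative. The other stalk and rotor subunits ATP5F1C and ATP5F1E had log2 fold changes of 0.03 and 0.02, and the peripheral stalk subunits ATP5PB, ATP5PD, ATP5PF and ATP5PO had -0.03, 0.05, 0.07 and 0.07, with overlapping groups in each.

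ATP5ME, the membrane subunit e that helps ATP synthases pair into dimers, had the highest log2 fold change of the members and the smallest p. It had 324, 348 and 361 TPM in ArA cells, against 266, 302 and 303 TPM in control cells. Every ArA library lay above every control library, and the means of 344 ± 18.8 and 290.3 ± 21.1 TPM (SD, n = 3 each) gave a ratio of 1.19. The log2 fold change was 0.25 ± 0.09 (SE), with a 95% interval of 0.04 to 0.45, an unadjusted limma p of 0.0238 and an adjusted limma p of 0.999. Over the alternatives tried, its log2 fold change lay between 0.17 and 0.32 and its adjusted limma p between 0.0605 and 1. The gene lies on the minus strand of hg38 at chr4:672436-674338. The neighbouring membrane subunits ATP5MF and ATP5MG had log2 fold changes of 0.00 and 0.08 with overlapping groups.

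Only COX6A1, COX6B1 and ATP5ME had groups that did not overlap, all 3 higher in ArA cells, against 6.84% of all tested genes. In 0 members did every ArA library lie below every control library, against 1.21% of all tested genes. After median-of-ratios scaling 1 member was separated, in the lower direction, and 0 in the higher, against 5.45% of all tested genes in either direction. An exact permutation test of 3 against 3 libraries cannot give a p below 0.1, so it was not used for single genes. The count of separated members depended on which libraries were present. It was 16 of 39 without ArA replicate 1 (23.6% of all tested genes), 10 without control replicate 2 (27.0%) and 5 without control replicate 1 (15.4%). Without both ArA replicate 1 and control replicate 2 it was 23 of 39, all higher in ArA, against 44.4% of all tested genes in either direction.

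**Figure D2:**
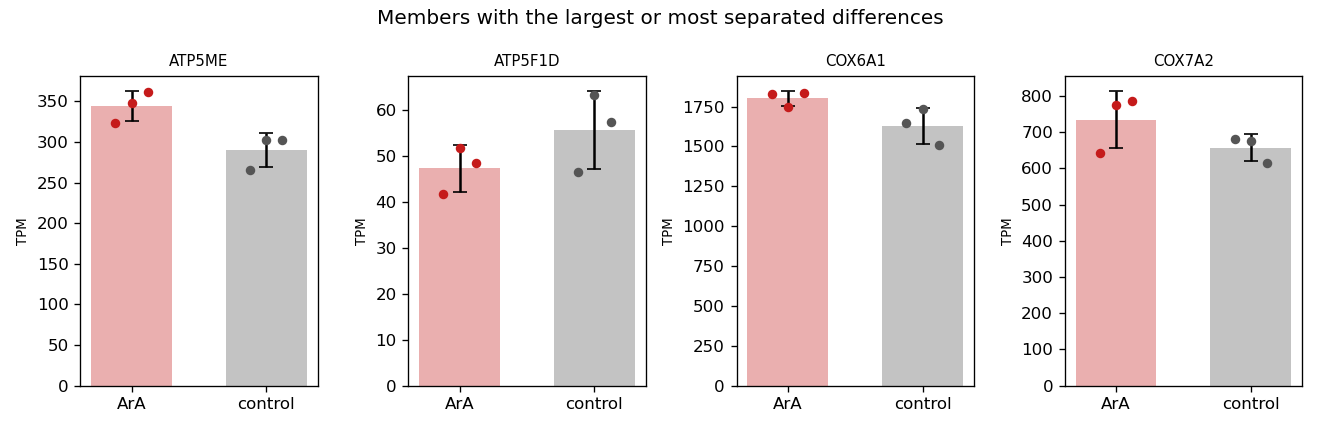
TPM of ATP5ME, ATP5F1D, COX6A1 and COX7A2 in each library (points) with the mean and SD of each group (bars, n = 3; ArA left, control right). ATP5ME averaged 344 TPM in ArA and 290.3 TPM in control cells with no overlap, whereas ATP5F1D and COX7A2 overlapped.

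ATP5MC1, ATP5MC2 and ATP5MC3 encode the c subunit of the rotor ring, the part of complex V that protons turn. They lie on chromosomes 17, 12 and 2 and differ in their import sequence, which is cut off, but are known to give 1 mature protein. The last 150 coding bases before the stop codon, which lie within the mature part, show how far the genes differ in letters. The sequences are from the GENCODE v29 transcripts on hg38, 5′ to 3′, and capitals mark the positions at which the 3 genes are not all alike.
ATP5MC1: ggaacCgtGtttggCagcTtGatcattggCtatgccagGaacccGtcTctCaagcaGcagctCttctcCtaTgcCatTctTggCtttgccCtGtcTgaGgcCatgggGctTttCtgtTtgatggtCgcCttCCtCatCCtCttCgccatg
ATP5MC2: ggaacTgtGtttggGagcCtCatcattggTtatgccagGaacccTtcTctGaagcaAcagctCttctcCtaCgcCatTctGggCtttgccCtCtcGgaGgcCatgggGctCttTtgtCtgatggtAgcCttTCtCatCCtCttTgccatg
ATP5MC3: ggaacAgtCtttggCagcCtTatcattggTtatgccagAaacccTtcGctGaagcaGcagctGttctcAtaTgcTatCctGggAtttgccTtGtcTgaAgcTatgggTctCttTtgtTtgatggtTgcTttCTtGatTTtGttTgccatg
The 3 stretches differed at 36 of 150 positions, 31 of them at the last base of a codon, and all 3 translate to the same 50 amino acids. The longest run that all 3 share was 8 bases. ATP5MC1 and ATP5MC2 were the closest pair, with 88% identity.

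ATP5MC1 had 258, 254 and 282 TPM in ArA cells, against 248, 271 and 248 TPM in control cells. ATP5MC2 had 198, 177 and 185 TPM in ArA cells, against 166, 197 and 190.0 TPM in control cells. ATP5MC3 had 264, 274 and 282 TPM in ArA cells, against 241, 286 and 268 TPM in control cells. The groups overlapped for each gene. Of the summed c-subunit level, ATP5MC1 took 36.4 ± 0.994% in ArA cells and 36.3 ± 1.40% in control cells, ATP5MC2 25.8 ± 1.5% in ArA cells and 26.1 ± 0.797% in control cells, and ATP5MC3 37.8 ± 1.10% in ArA cells and 37.6 ± 0.642% in control cells (SD, n = 3 each). The 3 genes thus kept near-equal shares in both groups, the differences being smaller than the SD.

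Complex IV has a second set of alternative genes. COX4I2, a form known from lung, the heart and skeletal muscle forms COX6A2 and COX7A1, and the testis form COX8C were listed at 0 TPM in all 6 libraries. COX6B2, a testis form of subunit 6B, lay between 0.0300 and 0.280 TPM. COX7B2, a second form of subunit 7B described mainly from testis, is named because of its higher level. It had 143, 169 and 206 TPM in ArA cells, against 153, 144 and 162 TPM in control cells, whereas COX7B, on chromosome X, had 37.6, 47.4 and 49.0 TPM in ArA cells and 46.6, 38.3 and 49.4 TPM in control cells. In TPM, COX7B2 was thus the higher form in each library, at 3.87 ± 0.320 times COX7B in ArA cells and 3.44 ± 0.273 times in control cells (SD, n = 3 each). A TPM ratio between genes depends on the transcript length by which each was divided, and those lengths are not stated. The longest annotated COX7B transcript has 2471 bases. The log2 fold change of COX7B2 was 0.16 ± 0.14 (SE) with an adjusted limma p of 0.999.

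**Figure D3:**
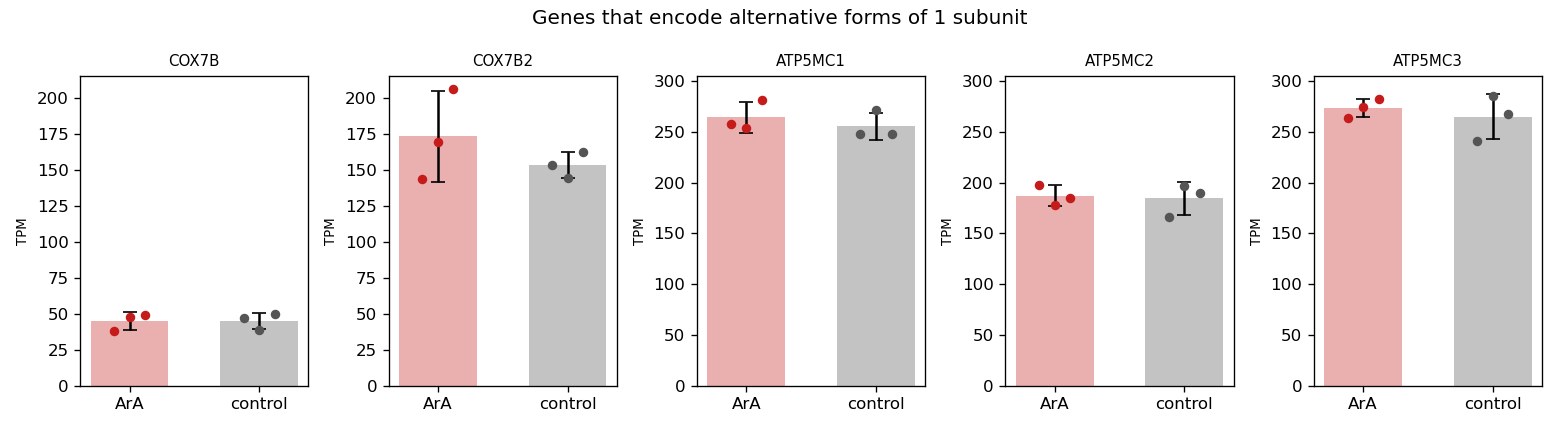
TPM of COX7B, COX7B2, ATP5MC1, ATP5MC2 and ATP5MC3 in each library (points), with bars for the group means and error bars for the SD (n = 3; ArA left, control right). COX7B2 lies above COX7B in each library, and the 3 c-subunit genes lie between 166 and 286 TPM.

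The subunits of a complex are assembled in fixed ratios, but their transcripts were not equally abundant. The mean TPM over the 6 libraries spanned 1.24-fold in complex II, from 76.1 (SDHD) to 94.4 (SDHA). The span was 12.3-fold in complex III, with UQCRFS1 at 31.9 and UQCRH at 393 TPM, 38.4-fold in complex IV, with COX7B at 44.7 and COX6A1 at 1716 TPM, and 60.8-fold in complex V, with ATP5F1E at 26.5 and ATP5MF at 1613 TPM. COX6A1, ATP5MF, COX4I1 and COX7A2 were the 4 most abundant members, and ATP5F1E, UQCRFS1, COX7B and ATP5F1D the 4 least abundant. The median member stood at 186 TPM, against 11.4 TPM for all tested genes, and even the lowest member ranked at the 71.1 percentile. TPM is scaled by transcript length, and levels of the shortest transcripts depend most on how length was handled. The longest annotated transcripts of COX6A1, ATP5MF, COX4I1 and COX7A2 have 767, 774, 3946 and 914 bases. Those of ATP5F1E, UQCRFS1, COX7B and ATP5F1D have 3665, 3475, 2471 and 1587 bases. The part of transcript length in these spans was not tested.

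Summed over its subunits, complex IV reached 5703, 6029 and 6171 TPM in ArA cells, against 5638, 5693 and 5414 TPM in control cells. In these TPM every ArA library lay above every control library, though the nearest 2, ArA replicate 1 and control replicate 2, almost met. The median-of-ratios size factors ran from 0.916 (control replicate 2) to 1.09 (ArA replicate 3), a wider span than that gap. The sums were not recomputed under other scalings, so this separation holds for TPM as deposited only. Complex II summed to 343 ± 24.4 TPM in ArA cells and 319.5 ± 5.71 TPM in control cells, complex III to 1493 ± 131 and 1430.2 ± 68.1 TPM in ArA and control cells, and complex V to 4725 ± 192 and 4617 ± 206 TPM in ArA and control cells (SD, n = 3 each), all 3 with overlapping groups. The ratios of the means, ArA over control, were 1.07 for complex II, 1.04 for complex III, 1.07 for complex IV and 1.02 for complex V. The 37 nuclear-encoded subunits of complex I, taken for comparison, had a ratio of 1.05, within the range of complexes II to V. After quantile normalization the median log2 fold change of complex IV was -0.0038 and that of complex III was -0.0082, so neither direction held under every scaling. The median of complex V was -0.03 after median-of-ratios scaling, -0.04 after quantile normalization and -0.03 without mitochondrially encoded genes, and it was also below 0 without ArA replicate 3 (-0.01) and without control replicate 1 (-0.0036).

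The mitochondrially encoded partners of the same complexes had log2 fold changes below 0. Of the 6, 0 passed the test, against 0.0231% of all tested genes. MT-CYB, the cytochrome b of complex III, had 5695, 5149.7 and 4977 TPM in ArA cells, against 6127, 5731 and 5945 TPM in control cells, with every ArA library below every control library. MT-CO1, MT-CO2 and MT-CO3, the catalytic core of complex IV, summed to 61848 ± 6723 TPM in ArA cells and 67297 ± 360.4 TPM in control cells (SD, n = 3 each). ArA replicate 1 lay above all 3 control libraries in that sum. MT-ATP6, the proton channel subunit of complex V, had 13748, 12138 and 12094 TPM in ArA cells, against 14780.3, 13982 and 14506 TPM in control cells. Again the groups did not overlap.

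Of the 6 mitochondrially encoded subunits of complexes III to V, 0 had a positive log2 fold change, against 68.9% of all tested genes, and 2 were separated lower, against 1.21%. The values lay between -0.19 and -0.11 with a median of -0.17 (smallest unadjusted limma p 0.0522, adjusted 0.999). With library weights MT-ATP6 and MT-ATP8 passed the threshold, with an adjusted limma p of 0.0404 and 0.0491 and log2 fold changes of -0.25 and -0.24. Quantile normalization left MT-ATP6, MT-ATP8, MT-CO1, MT-CO2 and MT-CO3 at 0, because it gives the most abundant genes the same values in each library. MT-CYB then had a log2 fold change of -0.11. Mitochondrially encoded transcripts of all kinds made up 32.1, 28.0 and 26.9% of TPM in ArA cells, and 32.9, 32.0 and 31.6% in control cells. As TPM are shares of a fixed total, a lower mitochondrial share raises the values of all nuclear genes, members included. With mitochondrially encoded genes taken out before rescaling, 49.3% of tested genes were above 0. The count of 0 of 6 and the 68.9% are thus tied through the shared total. The 6 genes were also measured in the same libraries and are not independent replicates. MT-ATP8 overlaps MT-ATP6 and is short, so its level is uncertain and is not given.

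**Figure D4:**
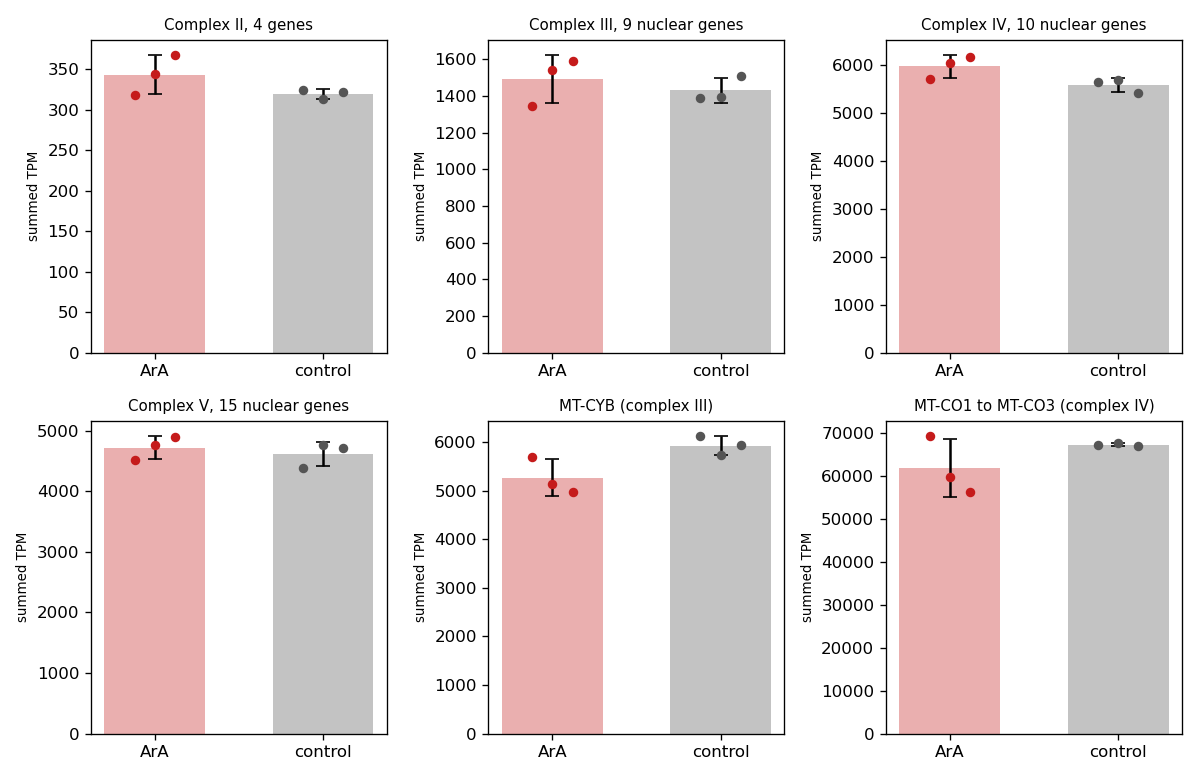
Summed TPM of the nuclear-encoded subunits of each complex, of MT-CYB and of MT-CO1 to MT-CO3, in each library (points) with group means and SD (n = 3; ArA left, control right). In TPM as deposited, complex IV sums lie at 5703 TPM or more in ArA cells and at 5693 TPM or less in control cells. MT-CYB lies lower in all 3 ArA libraries.

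ArA replicate 1 and control replicate 2 deviated from the other libraries in like manner. Both lay below the other 4 libraries in 15 of 39 members, against 39.1% of all tested genes, and these 15 included SDHD, UQCRB, UQCRC2, UQCRH, CYCS, COX6C, COX7B, COX7C and 7 subunits of complex V. Both lay above the other 4 in 6 members, UQCRC1, CYC1, SDHA, COX4I1, ATP5MC2 and ATP5MF, against 7.97% of all tested genes. Across the 39 members, the deviation of ArA replicate 1 from the other 2 ArA libraries and that of control replicate 2 from the other 2 control libraries had a Pearson r of 0.86 and a Spearman rho of 0.86, over genes that share these libraries and are not independent replicates. Over all tested genes r was 0.29 and rho 0.62.

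Base composition moved with this split. The 15 members that were low in both libraries had a median transcript GC content of 42.1%, and the 6 that were high had 53.9%, within a range of 37.5 to 64.5% over all members. Across the 39 members GC content had a Pearson r of 0.51 with the deviation of ArA replicate 1 and 0.58 with that of control replicate 2, but -0.19 with the log2 fold change between groups. Over all tested genes with a GC value these Pearson values were 0.41, 0.50 and 0.07. The Spearman rho values, in the same order, were 0.51, 0.54 and -0.08 for the members. For all tested genes with a GC value they were 0.58, 0.67 and 0.11. Whether GC content tracked the deviations of these libraries more closely in the members than in all genes thus depended on the measure. The part of base composition in the members' values was not tested beyond a correction of each library for it. After that correction 20 members were above 0, against 53.3% of all tested genes, and 0 were called. The log2 fold change of ATP5ME was then 0.18.

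**Figure D5:**
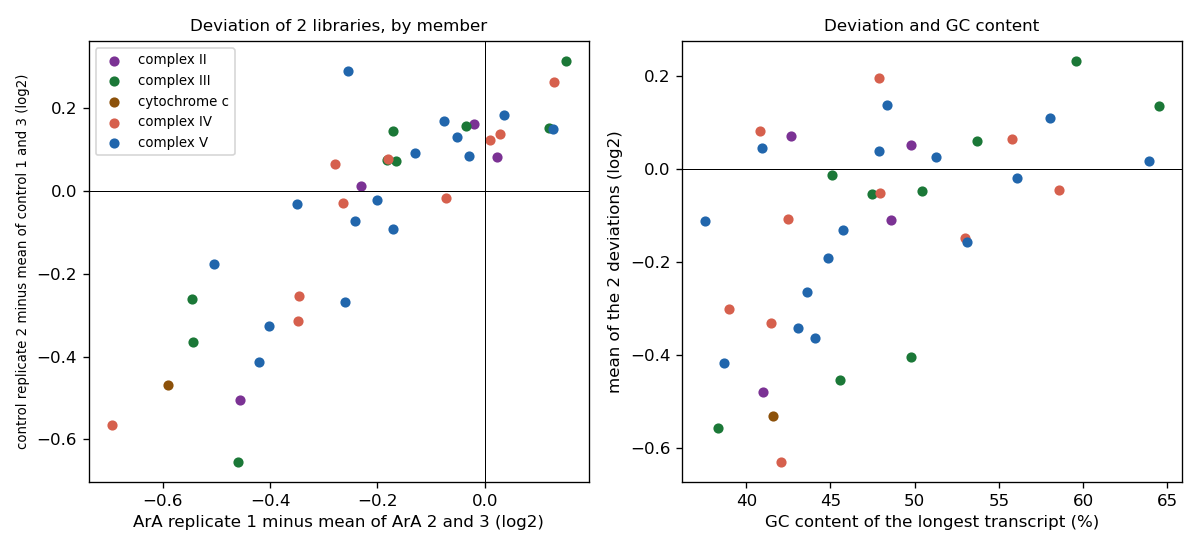
Deviation of ArA replicate 1 from the other ArA libraries against that of control replicate 2 from the other control libraries for the 39 members (log2(TPM + 1) scale), and the mean of the 2 deviations against transcript GC content (percent). The 2 deviations rise together (r = 0.86), and members of low GC content are spread from the lowest mean deviations to values above 0.

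Assembly factors, which help build the complexes, ranged more widely than the subunits. The test was passed by 0 of 37, against 0.0231% of all tested genes. Of the 37 tested, 30 had a positive log2 fold change (median 0.10), against 68.9% of all tested genes. Every ArA library lay above every control library for 4 of them, against 6.84% of all tested genes, and below for 0, against 1.21%. ATPAF2, the chaperone of the alpha subunit of complex V, had the highest value, 0.52 ± 0.17 (SE), with 10.8, 17.1 and 13.6 TPM in ArA cells and 9.34, 8.73 and 9.43 TPM in control cells. LYRM7, which escorts the Rieske protein into complex III, had the lowest, -0.84 ± 0.36 (SE), with 2.40, 3.99 and 3.22 TPM in ArA cells and 9.13, 3.15 and 8.67 TPM in control cells. The ATPAF2 groups did not overlap, whereas control replicate 2 put LYRM7 inside the ArA range. Unadjusted limma p-values were 0.0157 for ATPAF2 and 0.0506 for LYRM7, and both had an adjusted limma p of 0.999. With library weights the adjusted limma p was 0.0329 for ATPAF2 and 0.0446 for LYRM7. The other 3 separated factors were SDHAF2, UQCC1 and SURF1.

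Among further subunits and regulators of these complexes, 7 of 13 listed genes passed the filter. All 7 had positive values, against 68.9% of all tested genes. They ran from 0.00 for ATP5MJ, a small membrane subunit of complex V, to 0.25 for DMAC2L, and ATP5IF1, the natural inhibitor of complex V, had 0.17 ± 0.09 (SE). Of 13 tricarboxylic acid cycle enzymes, 10 were positive with a median of 0.02, between -0.02 (DLST) and 0.15 (SUCLA2), and of 37 complex I subunits 34 were positive with a median of 0.08, between -0.04 (NDUFC1) and 0.23 (NDUFV3). In each of these lists 0 genes passed the test.

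The 9 regulators of respiratory gene expression include TFAM, a factor that acts on mitochondrial DNA. Of these 9, 4 had a positive log2 fold change, against 68.9% of all tested genes, and 0 passed the test, against 0.0231%. NRF1 had the lowest, -0.26 ± 0.12 (SE), with an unadjusted limma p of 0.0721 and an adjusted limma p of 0.999. It had 5.37, 5.11 and 4.53 TPM in ArA cells, against 6.08, 6.01 and 6.45 TPM in control cells, with no overlap between the groups. ESRRA, a nuclear receptor that works with the PGC-1 coactivators, had the highest, 0.14 ± 0.11 (SE), with overlapping groups. PPARGC1A, the best known of those coactivators, was close to the filter at 1.01 ± 0.0361 TPM in ArA cells and 1.25 ± 0.219 TPM in control cells (SD, n = 3 each).

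Motifs of NRF1, GABP and YY1 were looked for in the members' promoters. RefSeq promoter windows on GRCh38.p14, 250 bases before to 50 bases after the gene start, were matched for 31 of 39 members, some of them with several starts and so several windows, and a gene was counted once if any of its windows held a motif. The NRF1 motif GCGCNTGCG stood in 12 of the 31 members (38.7%), against 9.01% of 27305 genes with a window. The ETS motif CCGGAAG, which GABP binds, stood in 15 (48.4%), against 12.2%, and the YY1 motif AANATGGCG in 6 (19.4%), against 3.85%. All were searched on both strands. The 27305 genes were not limited to the 12999 tested genes and were not matched to the members by level or base composition. Whether other genes of like level have similar shares was not tested. In the 32 complex I subunits with a window the shares were 34.4% for NRF1, 15.6% for ETS and 34.4% for YY1. The ETS and YY1 strings can share bases where they meet, and an NRF1 match on one strand can overlap a match on the other. At least 1 of the 3 motifs was found in 22 of the 31 members. A match is a description of the letters in the window and no evidence of binding. Windows are given for ATP5ME, the member with the highest fold change, for SDHA, which repeats the NRF1 motif, and for COX6A1, the most abundant member, 5′ to 3′ on the gene's strand with motif matches in capitals.
ATP5ME, chr4:674227-674526, minus strand: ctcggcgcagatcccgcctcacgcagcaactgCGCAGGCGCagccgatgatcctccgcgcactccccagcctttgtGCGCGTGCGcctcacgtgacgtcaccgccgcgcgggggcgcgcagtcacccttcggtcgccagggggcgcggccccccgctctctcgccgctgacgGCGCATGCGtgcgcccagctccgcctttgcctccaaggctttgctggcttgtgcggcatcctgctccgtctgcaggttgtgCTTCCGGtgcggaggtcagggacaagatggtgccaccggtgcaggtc
SDHA, chr5:218070-218369, plus strand: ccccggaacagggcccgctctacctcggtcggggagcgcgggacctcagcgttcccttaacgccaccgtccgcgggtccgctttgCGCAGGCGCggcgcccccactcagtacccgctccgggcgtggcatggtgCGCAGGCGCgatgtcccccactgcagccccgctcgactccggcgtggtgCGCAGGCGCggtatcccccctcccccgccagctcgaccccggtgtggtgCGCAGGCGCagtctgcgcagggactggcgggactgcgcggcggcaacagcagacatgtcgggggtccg
COX6A1, chr12:120437863-120438162, plus strand: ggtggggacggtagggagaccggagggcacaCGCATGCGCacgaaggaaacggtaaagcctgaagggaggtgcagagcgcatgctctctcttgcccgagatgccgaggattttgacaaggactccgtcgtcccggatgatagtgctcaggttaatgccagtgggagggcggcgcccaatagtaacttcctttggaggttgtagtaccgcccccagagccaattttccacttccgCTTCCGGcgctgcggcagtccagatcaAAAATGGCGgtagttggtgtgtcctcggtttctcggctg
The ATP5ME window holds 4 matches, 3 of the NRF1 motif and 1 of the ETS motif near the start. The SDHA window holds 4, all of the NRF1 motif on the minus strand, and the COX6A1 window holds 3, 1 of each motif.

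Markers fixed for a mesenchymal-like breast cancer line were checked against those of luminal, muscle and blood cells. VIM, CD44, AXL, LGALS1 and MSN were abundant in all 6, from 259.9 TPM (AXL) to 3982 TPM (LGALS1). ESR1 and CDH1 reached at most 0.0300 and 0.170 TPM, and PGR was listed at 0, but other genes of the luminal list were present. KRT8 averaged 390 TPM over the 6 libraries, KRT18 293 TPM and ERBB2 37.4 TPM. EPCAM had 3.17 to 6.92 TPM and GATA3 3.07 to 4.36 TPM. The KRT8 average lay above those of AXL (299 TPM), CD44 (341 TPM) and MSN (370 TPM), so level alone did not set the lists apart. Blood markers reached at most 0.15 TPM and muscle markers at most 1.42 TPM (DES). TPM columns share 1 total, so read depth is unknown and the precision of a value can be judged only by its replicates.

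The identity of the counted genes limits some levels. For 31 members, 176 copies are listed by symbol, named as pseudogenes except UQCRHL, a copy of UQCRH that was also among the further subunits. In SDHA alone did the copies sum to more than 5% of the member's own level, at 10.8%. How reads shared between a member and its copies were assigned is not stated. The members are therefore not ranked by their exposure to such reads. Of the 39 members, 12 are overlapped by another gene that averaged 1 TPM or more, in 11 of them on the opposite strand, and 6 by a gene at over 5% of the member's own level. SDHD with TIMM8B, ATP5PB with WDR77 (54.0 TPM) and ATP5MG with AP001267.1 (21.9 TPM) are the clearest cases.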

How the data were processed

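RNA-seq expression was taken from 1 table with 6 columns, 3 ArA and 3 control libraries of MDA-MB-231 cells, grouped by the sample titles. The values the authors deposited are TPM, which scale each library to the same total. Per the submitters' processing notes, HISAT2, StringTie and RSEM were used with build hg38 (roles and versions: not given in the sources used here), and neither the annotation nor the strand setting is stated. Lines that name no gene (50) were left out.

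From these TPM, log2(TPM + 1) of the 12999 genes averaging 1 TPM or more were fitted with limma 3.58.1 (trend, 2-sided) in R 4.3.3, with group as the only term and Benjamini-Hochberg adjustment at 0.05 over all tested genes. The 39 members and the other lists were chosen with earlier results of these data known, so lists are described by counts and medians beside all tested genes and have no test. Values per library are given for catalytic or best known members, for the highest and lowest fold change of each complex and for the 3 smallest p. For other lists the highest and lowest fold changes among genes of at least 5 TPM are named. COX7B2, PPARGC1A, ATP5IF1 and the separated assembly factors were named after their values were seen. Coordinates, GC content and coding sequence came from GENCODE v29 on hg38, and promoters from RefSeq (GRCh38.p14). The fit was tested on simulated data with noise drawn independently for each gene and library. Those data lacked the shared deviation of ArA replicate 1 and control replicate 2, so they cannot show how the fit handles it. Alternatives covered scaling, pseudocount, filter, replicate block, library weights, GC correction and left-out libraries.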

Additional observations from a re-analysis of the deposited data

How the results depend on the processing

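The counts over members and over all genes, the medians and the fold changes of single named genes were recomputed under 20 alternatives; sums, shares, correlations, the other lists' counts and motif counts were not. Mitochondrially encoded genes have no value where they were taken out. In 31 of 39 members the difference was under 1 SE, so its sign, though counted, is not read as a direction. Of these 31, 26 changed sign in at least 1 alternative. The other 8 kept theirs. Members called stayed at 0 except under library weights, which called 1 (COX7A2), and also ATPAF2, LYRM7, MT-ATP6 and MT-ATP8 among the other named genes. Members above 0 numbered 18 after median-of-ratios scaling, 15 after quantile normalization and 18 without mitochondrially encoded genes, against 30. Separated members, 3 in the design used (8.05% of all tested genes), numbered 1 after median-of-ratios scaling (5.45%). They numbered 23 when control replicate 2 and ArA replicate 1 were left out (44.4%). Genes called over the table, 3 in the design used, numbered 214 with library weights, 5 after GC correction and 12 without control replicate 2 and ArA replicate 1. The replicate block gave 0 genes (232 at an unadjusted p below 0.05) and 0 members. Whether the replicate numbers pair the libraries is not stated. Deviations of same-numbered libraries had r of -0.16, -0.28 and 0.11, and the best match of ArA replicate 1 was control replicate 2 (r = 0.29). These values cannot decide it, since the likeness of those 2 libraries enters each of the deviations. Leaving out 1 library at a time gave 0 to 7 genes called and a member median between 0.001876 and 0.1411. It gave 3 to 16 separated members, against 12.4 to 27.0% of all tested genes. The cause of these shifts was not tested. Depth is unknown, and 3 libraries per group limit precision.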
